A study of Mus musculus with 6 samples.

Results

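Mitosis and spindle genes encode the proteins that carry a cell from the end of DNA replication through chromosome segregation to division into daughter cells. The set described here holds 39 mouse genes, taken as the rows of the deposited gene count table whose gene name was on a fixed list of symbols, of 43346 genes in that table. Each of the 39 symbols matched 1 row, and all 39 passed the filter on low counts that left 18359 genes for testing. The study sequenced RNA from liver tumours induced with diethylnitrosamine (DEN), a carcinogen that hepatocytes activate, in mice that overexpress SULF2, an extracellular enzyme that removes sulfate groups from heparan sulfate. All 6 tumours carried SULF2 overexpression and came from DEN treatment. The groups were 3 tumours with wild-type Gli1 (WT) and 3 with Gli1 knocked out (KO), and Gli1 is a transcription factor that Hedgehog signalling activates. The labels call the SULF2 mice Sulf2-TTR without spelling out the second part, and the sources used here give no strain, age, time after DEN or deleted part of Gli1. Whether the tumours are from separate animals is not stated either, so p-values reflect the spread among these 6 samples, which may be partly technical.

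Libraries held 75205624 to 132979502 counted reads. Gli1 itself had 7 to 20 reads in WT and 3 to 4 in KO libraries, in the direction of the labels. The summed level of 10 hepatocyte markers was 185527 to 248199 normalized CPM (counts scaled to a common library size with a trimmed-mean factor) in WT and 183988 to 200028 in KO, with none at 0 in any library. Mitosis and spindle genes took between 0.0054 and 0.0234% of all reads of a library, so they were minor transcripts in these tumours.

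Entry into mitosis is driven by the kinase Cdk1 with its cyclin partners, and the transcription factor Foxm1 switches on many of the genes needed. Aurora and Polo kinases then build a bipolar spindle, kinetochores attach chromosomes to microtubules, and a checkpoint holds anaphase until every chromosome is attached. The anaphase-promoting complex next destroys cyclin B and securin, and a central spindle with its contractile ring splits the cell. Adult hepatocytes are mostly quiescent and hold few of these transcripts, which makes the genes common markers of dividing cells in liver tumours.

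Many genes of this kind are repressed in resting cells and activated in G2 through a promoter element named CHR (cell cycle genes homology region), bound by MuvB complexes, often beside CCAAT boxes bound by NF-Y. Promoters from RefSeq (GRCm38.p6; 250 bases before to 50 after each start site, 300 in all) were found for 33 of the 39 members, with 35 start sites. Windows at the start site are shown for the 3 members of highest level that held a CHR and for Pttg1. Pttg1 was the most abundant member without a CHR in the bases scanned. Its RefSeq start site lies inside its deposited gene span, which on the minus strand begins at 43426251. The bases scanned for Pttg1 stop short of that position, so the stretch before the deposited gene start was not read. Other members have a RefSeq start site inside the deposited span too, among them Cenpa (30666886 against 30666777). For Cdca8 and Kif2c the bases scanned also stop short of the deposited gene start. Distances given for a CHR therefore hold for the RefSeq start sites only. Capitals mark the CHR letters TTTGAA or TTCGAA and the CCAAT box letters CCAAT, each on either strand, and at most 30 bases of annotated UTR are shown. For Cenpa only bases 1 to 30 from the start site are shown, all annotated UTR. Its CCAAT boxes at -109 and -86 lie outside that stretch.
Cenpa (chr5:30666886-30666915, plus strand): gaggggcgggtgatttTTTGAActgctggc
Ccnb2 (chr9:70421525-70421674, minus strand): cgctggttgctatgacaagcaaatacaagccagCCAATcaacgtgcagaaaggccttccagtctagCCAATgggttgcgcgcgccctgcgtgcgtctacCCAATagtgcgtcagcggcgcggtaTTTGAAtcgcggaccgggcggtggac
Cdc20 (chr4:118437323-118437463, minus strand): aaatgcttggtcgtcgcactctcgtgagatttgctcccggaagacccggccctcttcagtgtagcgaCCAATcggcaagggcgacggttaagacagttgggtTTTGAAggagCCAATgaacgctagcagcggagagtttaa
Pttg1 (chr11:43425952-43426101, minus strand): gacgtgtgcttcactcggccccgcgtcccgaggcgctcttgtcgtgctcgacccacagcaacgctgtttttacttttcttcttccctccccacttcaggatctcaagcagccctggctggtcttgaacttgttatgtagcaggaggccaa

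CHR letters were common among the members. At least 1 of its forms stood in 27 of the 35 member promoters (77.1%), against 19.2% of all 32851 RefSeq promoters of the same length. The form TTTGAA alone was in 74.3% of member promoters and 17.9% of all, and TTCGAA, which reads the same on both strands, was in 8.57 and 1.56%. CCAAT letters were in 74.3% of member promoters against 37.4% of all, and both a CHR and a CCAAT box were in 68.6% against 7.52%. For the E2F site only the letters TTTCGCGC and TTTGGCGC were scanned, so any other form of the site was not counted. TTTCGCGC was in 1 member promoter, that of Cdk1 (2.86% against 0.323% of all), and TTTGGCGC in 0 against 0.514%. The forms of CHR cannot match the same bases, and the other motifs overlapped none of them in the windows shown. By gene, 25 of the 33 members held a CHR, and in 23 of them its first base lay within 50 bases of the start site. Kif2c and Mki67 held it only farther upstream. The share of all promoters with a CHR within 50 bases was not counted. The 8 members without these letters in the window were Birc5, Ccnb1, Cenpe, Mad2l1, Melk, Nuf2, Nusap1 and Pttg1, and a match is a description, not evidence of binding. Of these 8, only Pttg1 lacked the set of 3 highest libraries described next.

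**Figure D1:**
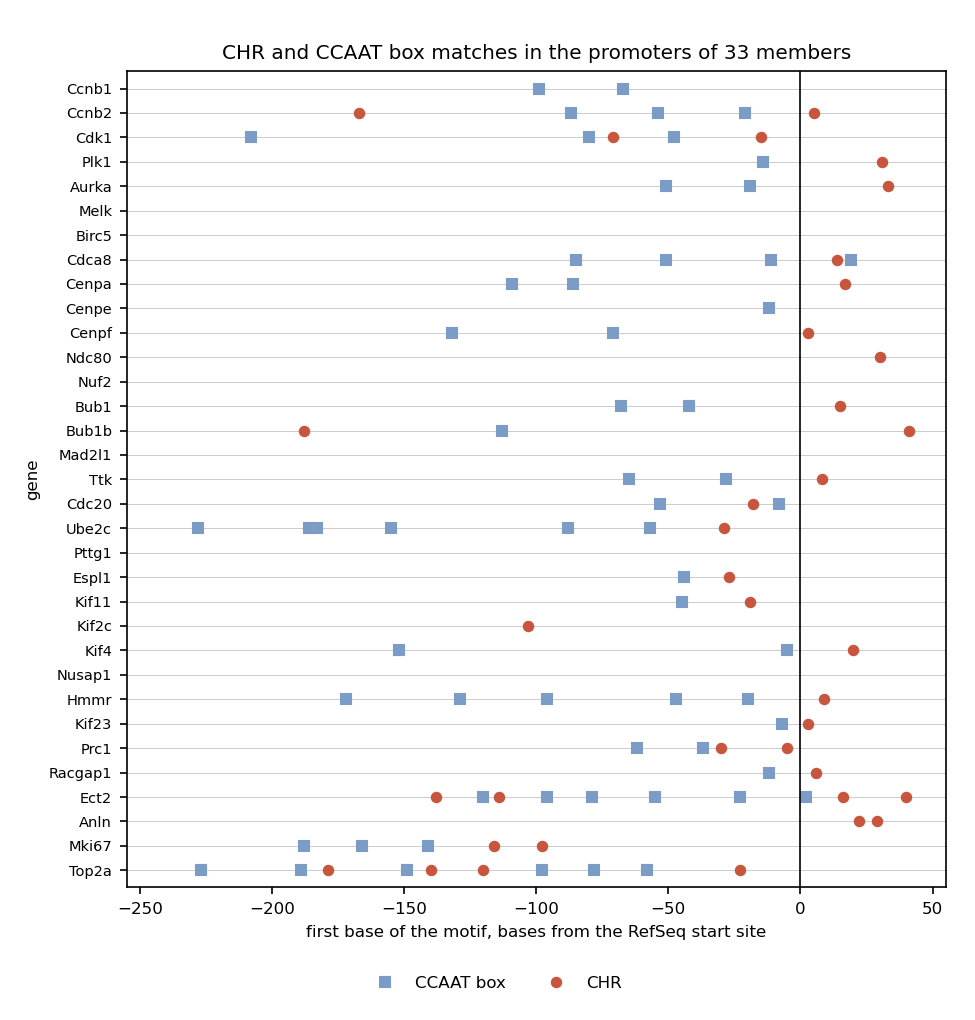
Positions of CHR (red circles) and CCAAT box (blue squares) letters in the promoters of 33 members; the x axis is the distance in bases of the motif's first base from the RefSeq start site, marked by the vertical line. CHR matches lie within 50 bases of the start site in 23 members, a count not made for all promoters, and CCAAT boxes are mostly upstream.

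The members varied together from tumour to tumour, across both genotypes. KO replicate 3 was the highest of the 6 libraries for 32 of the 39 members, against 15.5% of all genes tested, and WT replicate 3 was the highest for 6 (22.2% of all genes). In 38 of the 39 members the 3 highest libraries were KO replicate 3, WT replicate 3 and KO replicate 1, an arrangement found in 7.77% of all genes tested. At the low end, WT replicate 2 was the lowest library for 28 members (20.0% of all genes), WT replicate 1 for 7 (16.6%) and KO replicate 2 for 4 (10.5%). Summed over the 39 genes, the level in WT replicates 1, 2 and 3 was 59.97, 54.3 and 157.9 normalized CPM, and that in KO replicates 1, 2 and 3 was 127.2, 56.1 and 217.1. Of these sums, Pttg1 alone gave 17.0 in WT replicate 2 and 10.8 in KO replicate 2 but 2.09 in WT replicate 1. The members' median log2 deviation from the gene mean (0.1 CPM added) was -0.59, -1.18 and 0.74 in the WT replicates. In the KO replicates it was 0.49, -0.86 and 1.32, so the low libraries were less alike than their sums. Each genotype thus held tumours of high and of low level, with a mean sum of 90.7 ± 58.2 in WT and 133.5 ± 80.6 in KO (SD, n = 3 each). In bulk RNA, fewer dividing cells and less RNA per dividing cell cannot be told apart.

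**Figure D2:**
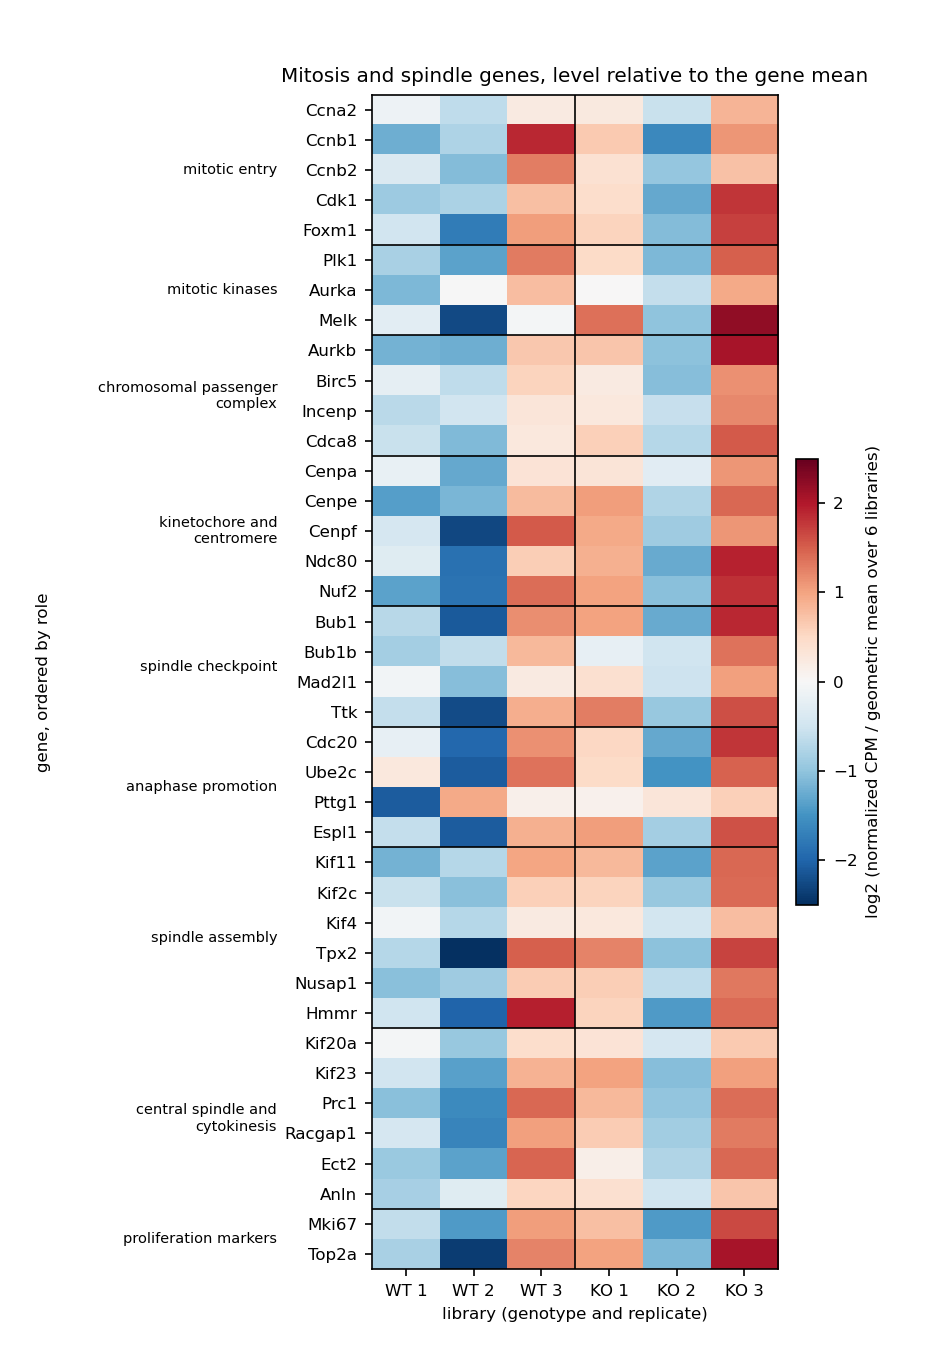
Level of each of the 39 genes (rows, ordered by role) in the 3 WT and 3 KO libraries (columns), as log2 of normalized CPM over the gene's geometric mean across the 6 libraries. WT replicate 3, KO replicate 1 and KO replicate 3 are the 3 highest libraries for 38 genes; the exception is Pttg1, whose highest library is WT replicate 2.

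Markers of other cell types were read in the same libraries. Stellate and fibroblast markers (9 of 9 detected, none at 0) summed to 136.1, 163.8 and 423.8 normalized CPM in WT replicates 1, 2 and 3 and to 712.9, 306.6 and 311.6 in the KO replicates, with the same 3 libraries highest but KO replicates 2 and 3 nearly level. Cholangiocyte markers (6, with Cftr at 0 in some library) summed to 39 to 480.8 in WT and 75.4 to 471.6 in KO, again with those 3 highest. The secreted phosphoprotein Spp1 made up 28.8 to 456.6 of it in WT and 67.9 to 465.0 in KO. The keratin Krt19 had 3.03 CPM in WT replicate 3, 1.22 in KO replicate 1 and 0.229 in KO replicate 3. In the same libraries the adhesion protein Epcam had 4.29, 3.28 and 0.205 and Krt7 had 2.08, 1.23 and 0.229. Cftr had 1.64, 0.760 and 0 there, and Sox9 had 13.1, 14.2 and 5.92. T and NK cell markers (10) summed to 3.82 to 6.85 in WT and 2.29 to 3.81 in KO, and B and plasma cell markers (7) to 8.22 to 61.4 and 7.14 to 20.7, each with KO replicate 3 near its low end. Neutrophil markers (8, with Ly6g at 0 in some library) summed to 10.4 to 44.6 in WT and 5.17 to 9.90 in KO, macrophage markers (8) to 78.5 to 291.0 and 58.6 to 101.8, and endothelial markers (8) to 212.5 to 254.8 and 148.2 to 202.4. The part of stellate, Spp1 and other cholangiocyte marker levels in the mitosis pattern was not tested.

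Per length, the most abundant member was Pttg1 at a mean of 4.63 deposited RPKM (reads scaled by gene length and library size), followed by Cenpa at 2.11, Mad2l1 at 1.96, Ccnb2 at 1.94 and Ccna2 at 1.64. The lowest was Cenpf at 0.0944. Neighbours in this order overlapped in their ranges over the libraries. Ccnb2, for instance, ran from 0.732 to 3.69 RPKM across the 6 tumours and Mad2l1 from 0.801 to 3.85. In reads, a member had a median of 173 in a library, and the range was 5 to 1926. Only Melk and Ndc80 had a library under 10 reads, both in WT replicate 2, with 5 reads of Melk (95% exact Poisson interval 1.62 to 11.7, counting error only) and 9 of Ndc80 (4.12 to 17.1).

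**Figure D3:**
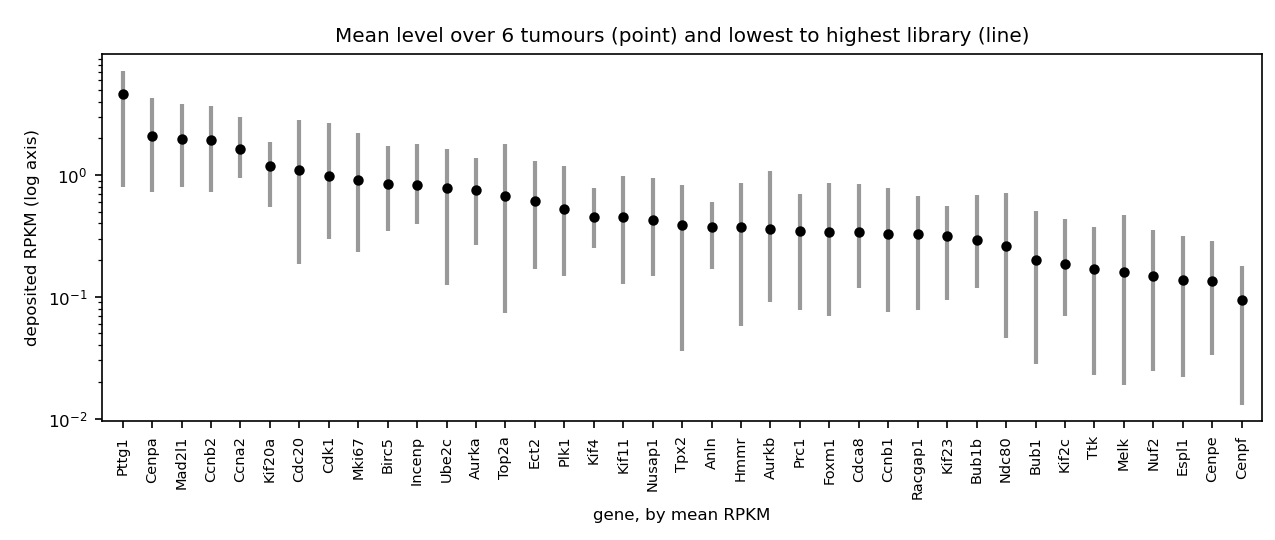
Deposited RPKM of the 39 genes on a log axis, ordered by mean; points are means over the 6 tumours and lines run from the lowest to the highest library. Pttg1 leads at a mean of 4.63 and Cenpf is lowest at 0.0944, and the lines of neighbouring genes overlap.

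Among genes of mitotic entry is Cdk1 (ENSMUSG00000019942, chromosome 10, 69336635 to 69352938, minus strand), the kinase that starts mitosis. It had 1.5, 1.64 and 4.73 normalized CPM in WT replicates 1, 2 and 3 and 3.82, 1.16 and 9.71 in KO replicates 1, 2 and 3. KO replicate 3 was highest and KO replicate 2 lowest, so the extremes lay within the same genotype. Foxm1 (chromosome 6, 128362967 to 128375893, plus strand), the activator of G2 and M genes, had 1.09, 0.449 and 3.11 in WT and 2.21, 0.707 and 4.94 in KO. The cyclin Ccnb1 (chromosome 13, 100778650 to 100786570, minus strand), the main mitotic partner of Cdk1, had 0.463, 0.634 and 3.99 in WT and 1.70, 0.354 and 2.32 in KO. Unlike Cdk1, it was highest in WT replicate 3. Its relative Ccnb2, which held a CHR 5 bases into the transcript as shown above, had 2.22, 1.33 and 6.94 in WT and 3.71, 1.45 and 4.73 in KO, also with WT replicate 3 on top. Ccna2, the cyclin of S phase and early mitosis, varied least in this group, with 5.55, 3.90 and 7.13 in WT and 7.23, 4.10 and 10.9 in KO.

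Among the mitotic kinases, Plk1 (ENSMUSG00000030867, chromosome 7, 122159437 to 122169875, plus strand), the Polo kinase of centrosome maturation and mitotic exit, had 0.551, 0.383 and 2.38 normalized CPM in WT and 1.34, 0.444 and 2.73 in KO. Aurka, the Aurora kinase of spindle poles, had 0.877, 1.89 and 3.27 in WT and 1.93, 1.27 and 3.68 in KO, and WT replicate 2 was close to KO replicate 1. Melk, a maternal embryonic leucine zipper kinase, had 0.263, 0.0661 and 0.304 in WT and 0.817, 0.158 and 1.46 in KO. Its WT replicate 3 was close to WT replicate 1, which set it apart from the other kinases, and both higher KO libraries lay above all WT libraries while KO replicate 2 lay among them.

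The chromosomal passenger complex places Aurora B at centromeres and later at the midzone. Its kinase Aurkb (ENSMUSG00000020897, chromosome 11, 69045647 to 69051664, plus strand) had 0.351, 0.344 and 1.28 normalized CPM in WT and 1.30, 0.391 and 3.34 in KO. Birc5 (survivin), the subunit that docks on histone H3, had 2.42, 1.80 and 4.14 in WT and 3.29, 1.34 and 6.2 in KO. Cdca8 (borealin) had 1.06, 0.727 and 1.88 in WT and 2.38, 0.955 and 4.54 in KO. The scaffold Incenp had 1.67, 1.90 and 3.28 in WT and 3.18, 1.78 and 6.09 in KO. All 4 subunits were highest in KO replicate 3, and for each KO replicate 2 lay below WT replicate 3 and both other KO libraries.

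Kinetochore and centromere genes were led by Cenpa (ENSMUSG00000029177, chromosome 5, 30666777 to 30674827, plus strand), the histone H3 variant that marks centromeres. It had 4.61, 2.17 and 6.61 normalized CPM in WT and 6.52, 4.28 and 11.2 in KO, so KO replicate 1 and WT replicate 3 were nearly level. The NDC80 complex grips microtubule ends, and its subunits Ndc80 (0.119 to 0.663 in WT, 0.181 to 1.64 in KO) and Nuf2 (0.185 to 1.74 in WT, 0.324 to 2.37 in KO) were both highest in KO replicate 3. The kinetochore motor Cenpe ran from 0.338 to 1.51 in WT and from 0.519 to 2.35 in KO. Cenpf, a large kinetochore protein of G2 and M, ran from 0.238 to 3.36 in WT and from 0.624 to 2.49 in KO, and was the only member of this group with its highest value in WT replicate 3.

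Spindle checkpoint genes gave the same picture, at low level for all but Mad2l1. Mad2l1 (ENSMUSG00000029910, chromosome 6, 66535390 to 66541033, plus strand), which binds and blocks Cdc20, was the most abundant of them, with 4.13, 2.09 and 5.11 normalized CPM in WT and 5.73, 3.03 and 8.88 in KO. The kinase Bub1 ran from 0.145 to 1.41 in WT and from 0.263 to 2.30 in KO, and its relative Bub1b (BubR1) from 0.651 to 2.07 and from 0.835 to 3.04. Ttk (Mps1), the kinase at the head of the checkpoint, ran from 0.132 to 1.17 in WT and from 0.324 to 1.91 in KO. KO replicate 3 was the highest library for all 4.

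Of the genes that promote anaphase, Pttg1 (ENSMUSG00000020415, chromosome 11, 43420250 to 43426251, minus strand) stood apart from the other members. Pttg1 is securin, the inhibitor that holds separase until its own destruction. It had 2.09, 17.0 and 9.66 normalized CPM in WT and 9.48, 10.8 and 13.4 in KO. WT replicate 2, the lowest library for 28 members, was its highest, and the other 5 libraries ran in an order of their own with WT replicate 1 lowest by far. Espl1 (separase), its target, had the highest and lowest libraries common among the members, with 0.476, 0.172 and 1.34 in WT and 1.48, 0.399 and 2.18 in KO. Cdc20, the activator of the anaphase-promoting complex, had 1.38, 0.410 and 3.48 in WT and 2.26, 0.655 and 5.51 in KO. Ube2c, the ubiquitin-conjugating enzyme of that complex, had 1.95, 0.383 and 4.17 in WT and 2.26, 0.572 and 4.49 in KO.

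Spindle assembly genes differed mainly in how far they ranged. Kif4 (chromosome X, 100625737 to 100727214, plus strand), a chromosome-bound kinesin, had 2.54, 1.63 and 3.13 normalized CPM in WT and 3.21, 1.94 and 4.55 in KO, a 2.80-fold range from lowest to highest library. Nusap1, a microtubule bundler, had 0.777, 0.859 and 2.47 in WT and 2.43, 1.03 and 4.01 in KO, a 5.16-fold range. Tpx2, the Aurora A activator on spindle microtubules, had the widest range here at 20.5-fold, from 0.198 in WT replicate 2 to 4.05 in KO replicate 3. Hmmr, a spindle pole protein, had 5.65 in WT replicate 3 and 3.96 in KO replicate 3 against 0.370 in WT replicate 2. The kinesins Kif11 (0.722 to 4.91 over the 6 libraries), which pushes spindle poles apart, and Kif2c (0.357 to 1.98), which depolymerizes microtubules, were highest in KO replicate 3.

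Among central spindle and cytokinesis genes, Kif20a and Anln varied least across libraries. Kif20a, a kinesin of the midzone, had 4.56, 2.44 and 6.41 normalized CPM in WT and 6.01, 3.53 and 7.40 in KO. Kif23 (chromosome 9, 61917280 to 61946799, minus strand), the motor of the centralspindlin complex, had 0.701, 0.383 and 1.79 in WT and 1.95, 0.466 and 1.98 in KO, with KO replicates 1 and 3 nearly level. Racgap1, the other centralspindlin subunit, ran from 0.647 to 4.15 in WT and from 1.11 to 5.01 in KO. Ect2, a guanine nucleotide exchange factor needed for cytokinesis, had 7.23 in WT replicate 3 and 7.14 in KO replicate 3, and the bundler Prc1 had 6.14 and 6.01. Those pairs were level, and the remaining 4 libraries ran from 1.04 to 2.94 for Ect2 and from 0.753 to 4.0 for Prc1. Anln (anillin), a scaffold of the contractile ring, ran only from 1.19 to 3.40.

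Both general markers of proliferation varied strongly. Mki67 (ENSMUSG00000031004, chromosome 7, 135689788 to 135716379, minus strand), which coats mitotic chromosomes and is the histological marker of cycling cells, had 4.85, 2.76 and 15.3 normalized CPM in WT and 12.5, 2.77 and 23.2 in KO. Top2a (chromosome 11, 98992943 to 99024189, minus strand), the topoisomerase that untangles sister chromosomes, had 2.32, 0.779 and 9.53 in WT and 8.11, 1.85 and 17.0 in KO. Its highest library was 21.8-fold above its lowest. For both genes the WT and KO ranges overlapped, and KO replicate 3 lay above every WT library.

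Counting could mix some members with neighbours, since the sources used here do not give the strand setting of the counting. Deposited gene spans of 15 members overlapped another gene. In 7 of these the partner was a protein-coding gene on the opposite strand. Among them were Exosc9 beside Ccna2 (7.94 to 14.9 normalized CPM), Pdzd11 beside Kif4 (11.5 to 14.9) and Cdc23 beside Kif20a (10.8 to 14.5). Others were Elovl1 beside Cdc20 (22 to 55.1) and 9930104L06Rik beside Cdca8 (5.75 to 7.56). Of these members, Ccna2, Kif4 and Kif20a ranged 2.80-fold, 2.80-fold and 3.03-fold across libraries, Cdca8 6.24-fold and Cdc20 13.5-fold. Any share of partner reads in these values was not tested.

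No mitosis or spindle gene passed the test between genotypes. Of the 39 members, edgeR's quasi-likelihood test called 0 at FDR 0.05, as it did 0.0% of all 18359 genes, and the Benjamini-Hochberg adjusted p rounded to 1 for each. Without adjustment, 0 members were under 0.05 in edgeR, against 3.62% of all genes. DESeq2 called 0 members after adjustment, against 0.317% of its genes, and only Melk was under 0.05 before it (adjusted p = 0.802). The genotypes overlapped for all 39 members (8.11% of all genes did not overlap). Log2 fold changes, KO minus WT, were above 0 in 36 of 39 members against 48.2% of all genes, with a median of 0.67 against -0.01. That median followed the choice of libraries. It was 0.09 without KO replicate 3, with 25 members above 0, and 1.62 without WT replicate 3, with all 39 above 0. Without WT replicate 2 it was 0.32 (33 above 0), and without KO replicate 2 it was 1.03 (39 above 0). With a term for whether a sample's description opens with a low or a high number it was 0.30 (32 above 0). WT replicate 1 and KO replicates 1 and 3 have low numbers, and WT replicates 2 and 3 and KO replicate 2 high ones. Within KO the term thus splits the libraries as the level of the members does. Without KO replicate 2, 11 members did not overlap between genotypes (16.5% of all genes tested in that setting), and without WT replicate 3, 7 did not (28.1%). There were 0 such members without WT replicate 1 (18% of all genes), WT replicate 2 (14.8%), KO replicate 1 (14.7%) or KO replicate 3 (15.3%).

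By role, the largest differences, none of which passed, were in Melk at 1.93 ± 0.90 (log2, SE), Aurkb at 1.34 ± 0.88, Ndc80 at 1.20 ± 0.90, Ttk at 1.12 ± 0.91 and Cdca8 at 1.10 ± 0.63. Without KO replicate 3, Aurkb was 0.36, Ndc80 0.38, Cdca8 0.45, Ttk 0.69 and Melk 1.19. Passenger complex genes had a median of 0.89 and kinetochore genes of 0.87, checkpoint genes 0.80, spindle assembly genes 0.71, anaphase genes 0.45, mitotic kinases 0.44, and entry and cytokinesis genes 0.42 each. Without KO replicate 3 these medians lay between -0.31 for mitotic kinases and 0.27 for kinetochore genes, and without WT replicate 3 between 1.30 for passenger complex genes and 1.88 for kinetochore genes. Top2a had 1.09 ± 1.04 and Mki67 0.75 ± 0.87, which were 0.24 and 0.0044 without KO replicate 3 and 2.53 and 1.75 without WT replicate 3. For Mki67 the genotype means were 7.64 ± 6.72 CPM for WT and 12.9 ± 10.2 for KO (SD, n = 3 each).

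The members that were not above 0 were the cyclins Ccnb1 (-0.22 ± 0.99) and Ccnb2 (-0.09 ± 0.70) and the spindle protein Hmmr (-0.09 ± 1.07). All of them had their highest library in WT replicate 3, and without it Ccnb1 was 1.40 and Ccnb2 0.89. Estimates of other members crossed 0 in turn. Without KO replicate 3, Cdk1 was -0.08, Foxm1 -0.09, Plk1 -0.31, Aurka -0.33 and Birc5 -0.27, against 0.90 ± 0.81, 0.75 ± 0.89, 0.44 ± 0.89, 0.19 ± 0.59 and 0.37 ± 0.59 with it. Pttg1 was 0.23 ± 0.65, and -0.24 without WT replicate 1. The smallest errors belonged to Ccna2 (0.42 ± 0.40), Kif4 (0.41 ± 0.41) and Kif20a (0.34 ± 0.43). With 1 library left out these ran from 0.036 to 0.72, from 0.083 to 0.68 and from 0.043 to 0.69. The median fold between the highest and lowest library within a genotype was 5.20 in WT and 5.16 in KO. Over the 6 libraries the median fold from lowest to highest was 7.74 for the members and 2.04 for all genes tested.

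**Figure D4:**
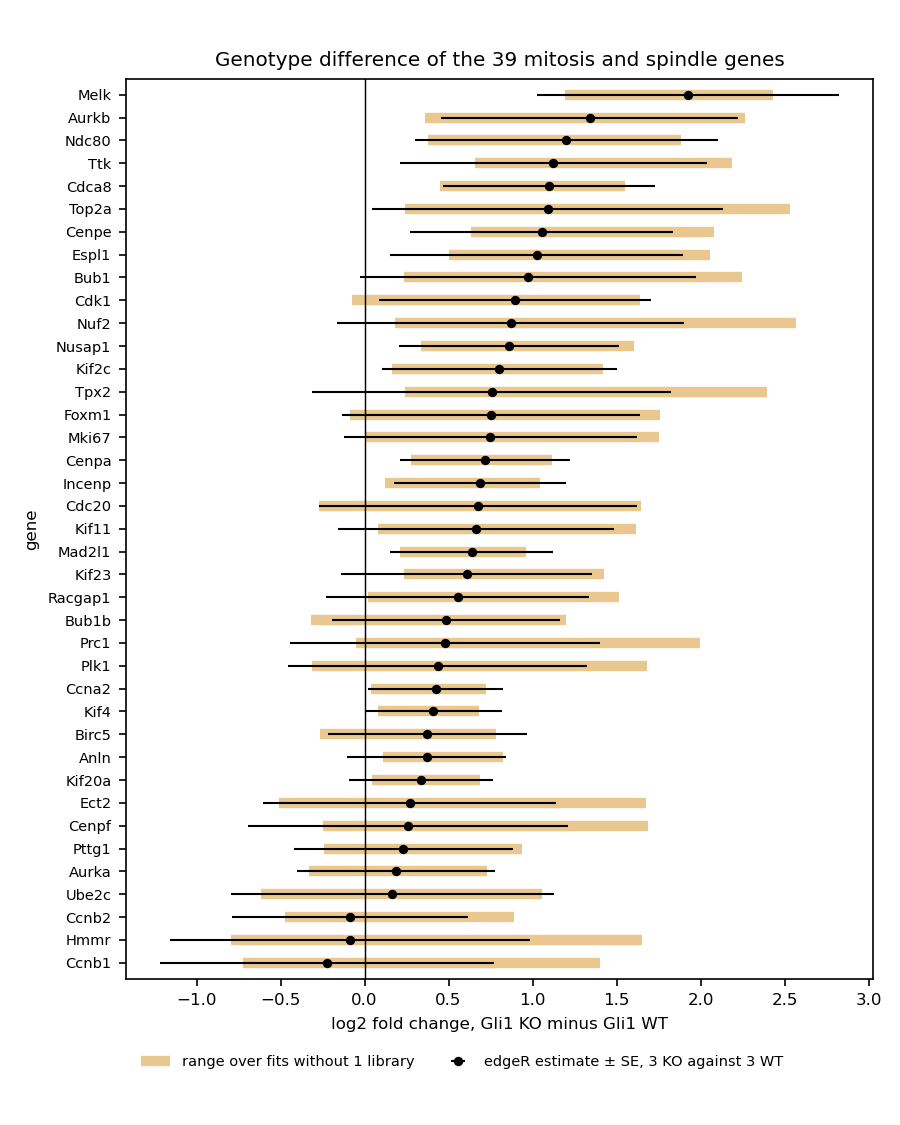
Log2 fold change, KO minus WT, of the 39 genes: points with bars are edgeR estimates ± SE from 3 libraries per genotype, and wide bands run over the 6 fits that each leave out 1 library. From Ccnb1 at -0.22 to Melk at 1.93, no gene passed FDR 0.05, and the bands of many genes span 0.

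The libraries of highest level, KO replicate 3 and WT replicate 3, did not hold the members in the same proportions. KO replicate 3 was above WT replicate 3 for 33 of the 39 members, against 50.3% of all genes tested, with a median ratio of 1.5. The ratio was lowest for Ccnb1 at 0.581, Ccnb2 at 0.682, Hmmr at 0.700 and Cenpf at 0.740. Ect2 at 0.988 and Prc1 at 0.979 were level. It was highest for Melk at 4.81, Aurkb at 2.61, Ndc80 at 2.47, Cdca8 at 2.42 and Cdk1 at 2.05. These ratios compare 2 libraries, with no replicate check.

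Genes that copy DNA in the phase before mitosis differed more between these libraries. All 30 of 30 DNA replication genes were higher in KO replicate 3 than in WT replicate 3, with a median ratio of 3.2, and their summed level was 263.5, 247.8 and 183.3 normalized CPM in WT and 220.9, 182.4 and 550.1 in KO. WT replicate 3, second for mitosis genes, was next to lowest in this sum. By gene, it was the lowest library for 5 of the 30, and 12 of the 30 had the same 3 highest libraries as the members (7.77% of all genes). Between genotypes, 28 of the 30 had estimates above 0 (48.2% of all genes) with a median of 0.75, and 16 with a median of 0.02 without KO replicate 3. Their 2 members of smallest p, neither past the threshold, were the transcription factor E2f1 at 1.64 ± 0.63 and the helicase component Gins2 at 0.81 ± 0.32, which were 0.66 and 0.60 without KO replicate 3.

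Of 84 other mitosis genes, which hold further kinetochore, condensin, kinesin and centrosome proteins, 72 were highest in KO replicate 3 (15.5% of all genes tested). In 55 of them the same 3 libraries were on top (7.77% of all genes). WT replicate 2 was lowest for 42 of the 84 (20.0% of all genes) and KO replicate 2 for 21 (10.5%). Their summed level was 437.1, 361.6 and 484.1 normalized CPM in WT and 487.3, 315.4 and 687.4 in KO. By edgeR 0 passed FDR 0.05 (0.0% of all genes), 1 was at an unadjusted p under 0.05 (3.62%), and 79 were above 0 (48.2%). Their median log2 fold change was 0.56, or 0.07 without KO replicate 3 and 1.13 without WT replicate 3. It was also 0.92 without KO replicate 2 and 0.28 with the term for low or high sample numbers. The 3 of smallest p were Trip13, an ATPase that resets the checkpoint protein Mad2, at 1.57 ± 0.58, the centromere loading factor Oip5 at 1.57 ± 0.69, and Wee1, the kinase that restrains Cdk1, at 0.54 ± 0.26. Without KO replicate 3 these were 0.94, 1.04 and 0.26. Levels of Trip13 were 0.501, 0.330 and 0.630 CPM in the WT libraries and 1.28, 0.594 and 2.47 in the KO libraries, so only KO replicate 2 reached into the WT range. Oip5 overlaps Nusap1 on the opposite strand.

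The 14 MuvB, MYB and RB factors, some of which act on CHR or E2F sites, summed to 187.9, 211.2 and 180.8 normalized CPM in WT and 191.4, 191.9 and 237.8 in KO, with a median fold of 1.67 from lowest to highest library (2.04 for all genes tested) and a range of 1.18 to 3.66 over the 14. Of these factors, 7 were highest in KO replicate 3 (15.5% of all genes). By edgeR 0 passed, 8 were above 0 (48.2% of all genes) and the median log2 fold change was 0.06, or -0.02 without KO replicate 3. The 3 of smallest p were the MuvB subunit Lin9 at 0.60 ± 0.34 (0.27 without KO replicate 3), the E2F partner Tfdp1 at 0.33 ± 0.26 (0.14 without WT replicate 1) and the RB relative Rbl1 at 0.51 ± 0.42 (0.07 without KO replicate 3).

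**Figure D5:**
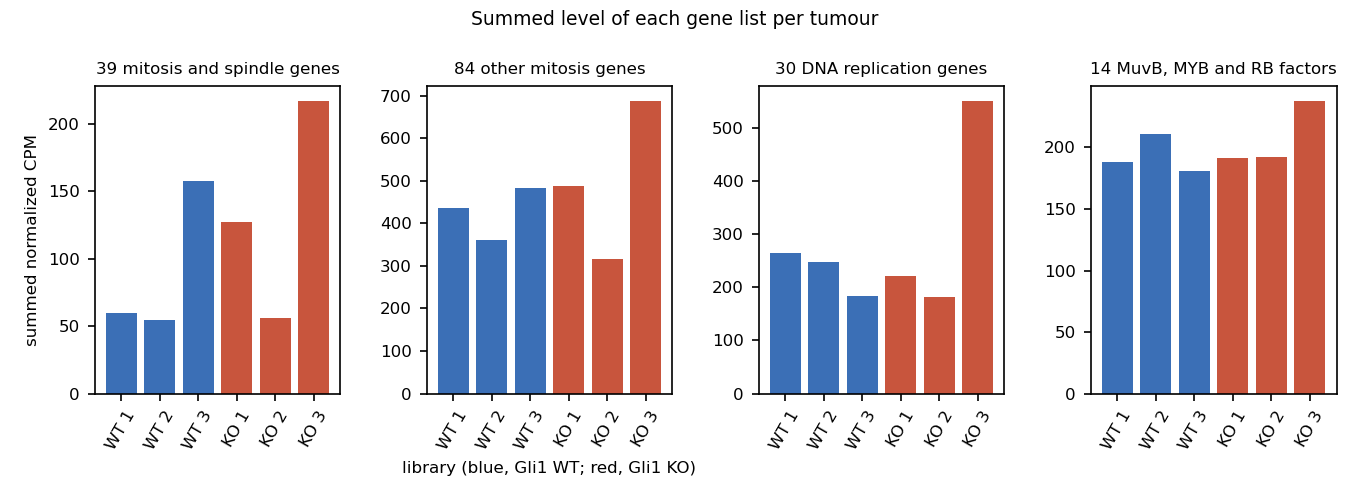
Summed normalized CPM per library (bars from 0; blue WT, red KO) of the 39 members, 84 other mitosis genes, 30 DNA replication genes and 14 MuvB, MYB and RB factors. WT replicate 3 is second for the members at 157.9 but low for replication genes at 183.3, and KO replicate 3 is highest in each panel.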

How the data were processed

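RNA from 6 liver tumours was sequenced. The deposited table gives, for every gene and library, an unnormalized count and an RPKM value made by the authors. The submitters' processing notes name TopHat2 2.0.6, HTSeq and bcl2fastq without a role, and the builds hg19 and GRCh37. Gene identifiers are mouse Ensembl ones, and 84.2% of the 42462 shared with GENCODE M21 have the same start, so the deposited coordinates were taken to be on GRCm38. The sources used here do not state the counting strand. RPKM, deposited per coding length, served only to order levels between genes.

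Counts were tested with edgeR 4.0.16 (R 4.3.3; filterByExpr, TMM factors, robust quasi-likelihood test, two-sided). The SE given with edgeR estimates was worked back from that test, as the absolute log2 fold change over the square root of its F statistic. P-values were adjusted by Benjamini-Hochberg over all 18359 genes passing the filter, and FDR 0.05 was the threshold. Total counts were 75205624 to 132979502 per library, and members had 5 to 1926 reads. Groups came from sample titles. Alternatives were DESeq2 1.42.0, voom in limma 3.58.1, factors by RLE or upper quartile, other filters, a replicate block, a term for the number opening each description (1647 to 1767, or 3981 to 4206, which is not said to be a batch), and leaving out each library. The fits were tested on simulated data.

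Members and lists were chosen with earlier results of these data known. Values per library are given for the member of highest RPKM and of smallest p in each role and for Mki67, Top2a, Ccnb1, Cdk1, Foxm1, Plk1 and Aurkb. Ccna2, Incenp, Cdc20 and Ube2c were added to these, and the rest are given by range. Hmmr, Ndc80, Ttk and the ratio of KO replicate 3 to WT replicate 3 were singled out after their values were seen. Of the other lists, 3 genes of smallest p are named (2 for replication). Members were matched by symbol. A further marker list is not reported here.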

Additional observations from a re-analysis of the deposited data

How the results depend on the processing

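In all settings run, 0 members passed FDR 0.05, and over all genes 0 passed except with DESeq2, which called 62. The median log2 fold change of the members stayed above 0, from 0.09 to 1.62 when a library was left out and from 0.30 to 0.70 otherwise. That of other mitosis genes ran from 0.07 to 1.13 and from 0.28 to 0.58. Members without overlap between genotypes numbered 0 to 11 when a library was left out, against 14.7 to 28.1% of all genes tested in those settings. Of the members chosen by the naming rule, 8 changed sign when a library was left out: Aurka (-0.33 to 0.73), Birc5 (-0.27 to 0.78), Ccnb1 (-0.72 to 1.40), Ccnb2 (-0.47 to 0.89), Cdk1 (-0.077 to 1.64), Foxm1 (-0.088 to 1.76), Plk1 (-0.31 to 1.68) and Pttg1 (-0.24 to 0.94). Outside that rule, Bub1b, Cdc20, Cenpf, Ect2, Hmmr, Prc1 and Ube2c changed sign as well. Birc5 was -0.086 with the term for low or high sample numbers. The cause was not tested. Replicate numbers were not taken as pairs because the labels do not say that they pair animals. Same-numbered WT and KO libraries had deviations from their genotype means that correlated at -0.29, 0.18 and -0.34 for numbers 1, 2 and 3. WT replicate 3 correlated best with KO replicate 1 (0.51). Such deviations also carry differences between tumours, so they cannot show whether animals were paired. Descriptions open with 1759 (WT) and 1767 (KO) for replicate 1 and with 4204 and 4206 for replicate 2. For replicate 3 they open with 3981 and 1647. With the replicate block the members' median was 0.66, 39 were above 0, 0 passed, and Ccnb1 was 0.027 and Ccnb2 0.10. Low read numbers limit members such as Melk, with 5 reads in WT replicate 2. A CPM of at least 1 in 3 libraries left 37 members.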
